A study of Sesamum indicum with 6 samples.

Results

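The plant cuticle is the waxy, water-repelling layer that epidermal cells lay over leaves and stems. Its waxes are very-long-chain fatty acids and the alkanes, alcohols and esters made from them, and its framework, cutin, is a polyester of hydroxylated fatty acids and glycerol. A total of 86 sesame genes of cuticle and wax metabolism were examined here, of 25762 genes with counts and 20661 with a product name in the authors' deposited table. They were chosen by 8 terms in the product name, of which 7 matched a gene and "cutin" matched 0. The rule gave 16 3-ketoacyl-CoA synthases (KCS), 11 ECERIFERUM (CER) proteins, 11 fatty acyl-CoA reductases (FAR), 5 WSD1-type O-acyltransferases, 29 non-specific lipid-transfer proteins (nsLTP), 2 cytochromes P450 of family 86 and 12 glycerol-3-phosphate acyltransferases (GPAT). Of the last class, 6 are lysophosphatidate acyltransferases whose name contains the term, and 1 is a plastid enzyme. These enzymes serve membrane lipids in other plants and were described apart.

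RNA came from young leaves of 17-day-old seedlings of recombinant inbred lines of sesame, homozygous on linkage group 8 for the SiCD-B allele, which carries the mutant kan1, or for the SiCD-A allele, which carries wild-type KAN1. KANADI transcription factors specify the lower side of leaves. Each allele group held 19 plants, and each of its 3 pools mixed RNA of 9 of them in equal amounts, so the 27 draws that filled a group's pools must repeat plants. The p-values below therefore measure the spread between pools that share plants, and the groups may also differ at other loci. Pools held 74331695 to 82165322 counts in SiCD_B and 56123250 to 74705569 counts in SiCD_A. KAN1 itself (LOC105167765) had 4164, 4418 and 4310 counts in SiCD_B pools, against 1579, 1511 and 1420 in SiCD_A pools, and since the labels give no sequence of kan1, this level does not test them.

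The cuticle and wax genes moved in both directions, with a share of calls near that of all genes and several changes of 2-fold or more. Of the 86 members, 79 passed the filter on low counts, and 12 of these were higher and 8 lower in SiCD_B than in SiCD_A. That is 25.3% of the tested members, against 30.6% of all 21009 genes tested. By direction, 16.5% of all genes were called higher and 14.1% lower. By class, 25% of tested KCS genes were called, 20% of CER, 40% of FAR and 19.2% of nsLTP. The share was 25% for WSD1, 36.4% for GPAT and 0% for the P450 genes. A gene was called at an adjusted p under 0.05 in edgeR's quasi-likelihood test over all genes. The median log2 fold change of the tested members was -0.02, and that of all genes tested was 0.01. The groups' CPM values were fully separated for 33 of the 79 (41.8%), against 48.4% of all genes. All 20 called members were among those 33. Neither share shows a change of these genes as a set. Calls of at least 2-fold were made for 7 members (3 higher and 4 lower, 8.86%), against 2.93% of all genes, and 3 of these 4 lower genes had a mean under 1 CPM. Calls of at least 1.5-fold were made for 13 (8 higher and 5 lower, 16.5%), against 8% of all genes. The number of lower members was 5 when SiCD_B pool 2 or SiCD_A pool 1 was left out and 3 when SiCD_A pool 2 was.

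**Figure D1:**
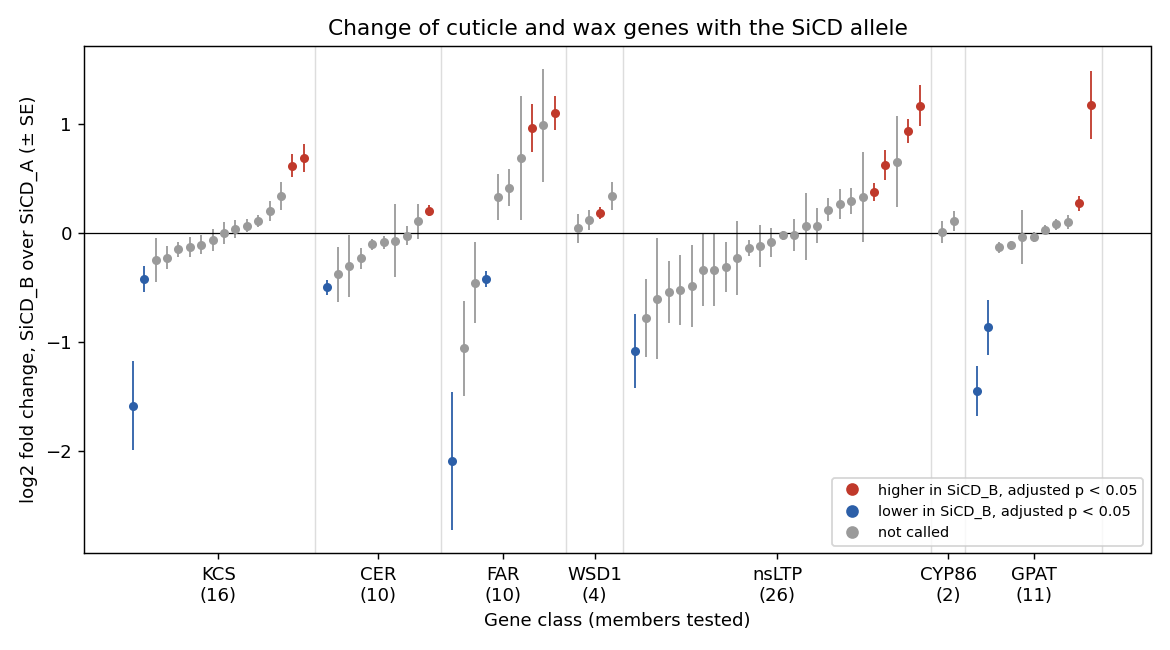
Log2 fold change of each of the 79 tested members, SiCD_B over SiCD_A, with its standard error, ordered within each gene class. Red and blue points passed an adjusted p of 0.05. Each class except WSD1 and CYP86 holds called genes on both sides of 0, and the largest changes lie between -2.09 and 1.17.

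Several of the lower calls were in genes with few reads. Of the 42 tested members with a mean of at least 10 CPM (counts scaled by TMM to a library of 1000000), 8 were higher and 3 lower. Of the 19 with a mean under 1 CPM, 0 were higher and 4 lower. At any level, 30.6% of all genes tested were called. The share of all genes called at each of these levels was not examined, so no link of direction to level is drawn. CPM are not corrected for gene length, so the members with the most reads named below are not ranked by level.

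The KCS enzymes, which carry out the condensing step that lengthens fatty acids for waxes, were called for 4 of 16 members, 2 in each direction (4 higher with library size alone). KCS5-like (LOC105160568, linkage group 4) had 16.8, 22.9 and 18.8 CPM in SiCD_B pools 1 to 3, against 13.2, 12.1 and 12.8 CPM in SiCD_A pools. Every SiCD_B pool lay above every SiCD_A pool, and the log2 change was 0.62 (SE 0.11, adjusted p = 0.00363, edgeR). KCS11-like (LOC105165320, linkage group 6) had 7.63, 7.30 and 7.63 CPM in SiCD_B pools, against 4.76, 5.37 and 3.83 CPM in SiCD_A pools. Its change on the log2 scale was 0.69 (SE 0.13, adjusted p = 0.00414, edgeR), and again the groups did not overlap. The other members named KCS11 or KCS11-like were not called. LOC105171620, LOC105164826 and LOC105168066 had log2 fold changes of -0.23 (SE 0.11), -0.15 (SE 0.07) and -0.25 (SE 0.20), and LOC105171618 is given below.

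KCS6, also known as CUT1 or CER6 in Arabidopsis, is the main condensing enzyme of stem and leaf wax there. Sesame has 4 members of that name, and they did not move together. LOC105177945 (linkage group 15) fell to 25.9, 19.8 and 27.2 CPM in SiCD_B pools, against 33.4, 33.8 and 30.2 CPM in SiCD_A pools. Its change on the log2 scale was -0.42 (SE 0.12, adjusted p = 0.0319, edgeR), and leaving out SiCD_A pool 1 or 2 ended the call (adjusted p = 0.0937 each), as did pool number as a block (0.0589). Its neighbour LOC105177946 had a log2 difference of -0.13 (SE 0.09, adjusted p = 0.309).

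The KCS6-like gene LOC105160999 had 87.5, 88.5 and 96.4 CPM in SiCD_B pools, against 79.3, 78.3 and 57.1 CPM in SiCD_A pools. The groups were separated, but the log2 fold change (0.34, SE 0.13) did not pass (adjusted p = 0.0887, edgeR), whereas the authors' deposited table gives it an adjusted p of 0.0143. KCS6-like LOC105176165 had a log2 difference of 0.00 (SE 0.10, adjusted p = 0.985), with 62.7 to 74.4 CPM in SiCD_B and 58.7 to 75.8 CPM in SiCD_A.

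The remaining KCS call was at the edge of detection. KCS20-like (LOC105173789) had 11, 13 and 5 counts in SiCD_B pools, against 25, 30 and 19 counts in SiCD_A pools, and the log2 change was -1.58 (SE 0.41, adjusted p = 0.0190, edgeR). It was lost without SiCD_B pool 3 (0.0552), SiCD_A pool 1 (0.0517) or SiCD_A pool 2 (0.0634). KCS10, named FIDDLEHEAD in Arabidopsis and needed there to keep epidermal surfaces from fusing, had 81.0 to 89.0 CPM in SiCD_B and 62.8 to 79.3 CPM in SiCD_A (LOC105164852, log2 fold change 0.20, SE 0.09, adjusted p = 0.121). The KCS with the most reads, KCS11-like LOC105171618, had 173, 177 and 185 CPM in SiCD_B pools, against 175, 181 and 155 CPM in SiCD_A pools (log2 fold change 0.07, SE 0.06, adjusted p = 0.428).

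CER1 and CER3 together make alkanes from very-long-chain acyl chains, and CER2-type proteins help the elongase reach the longest chains. Of 11 CER members, 10 were tested, 1 was higher and 1 lower, and both are CER3 genes. CER3 LOC105155872 (linkage group 2) had 74.0, 83.7 and 79.3 CPM in SiCD_B pools, against 70.0, 69.5 and 65.7 CPM in SiCD_A pools. CER3 LOC105165396 (linkage group 1) went the other way, with 15.3, 13.9 and 13.6 CPM in SiCD_B pools, against 19.1, 20.4 and 21.0 CPM in SiCD_A pools. For neither gene did the groups overlap.

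The log2 fold change of LOC105155872 was 0.21 (SE 0.05, adjusted p = 0.0183, edgeR) and that of LOC105165396 was -0.50 (SE 0.07, adjusted p = 0.00119). The small rise was lost without SiCD_B pool 2 (0.0702) or SiCD_B pool 3 (0.0565), and the fall held in all 14 alternatives run. The other CER3 genes, LOC105158256 and LOC105162876, had log2 fold changes of -0.02 (SE 0.09) and 0.11 (SE 0.16) and were not called.

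CER1, the alkane-forming partner, was not called for any of its tested genes. CER1-like LOC105167221, which drew the most reads of the class, had 237, 226 and 253 CPM in SiCD_B pools, against 256, 266 and 237 CPM in SiCD_A pools (log2 fold change -0.08, SE 0.06, adjusted p = 0.307, edgeR). CER1 LOC105173435 varied more between pools of a group than between groups. It had 136, 77.2 and 79.5 CPM in SiCD_B pools, against 140, 122 and 116 CPM in SiCD_A pools (log2 fold change -0.37, SE 0.25, adjusted p = 0.320). CER2-like LOC105172273 and CER26-like LOC105166525 had -0.10 (SE 0.05, adjusted p = 0.142) and -0.23 (SE 0.10, adjusted p = 0.101).

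FAR enzymes reduce acyl chains to the primary alcohols of wax. Of 11, 10 were tested, with 2 higher and 2 lower. FAR3-like LOC105170228 (linkage group 9), named for the Arabidopsis enzyme also called CER4, had 14.9, 17.0 and 22.7 CPM in SiCD_B pools, against 7.79, 9.37 and 8.31 CPM in SiCD_A pools. Its log2 fold change of 1.10 (SE 0.16, adjusted p = 0.00232, edgeR) was among the 2.93% of genes called at least 2-fold in either direction. FAR4 LOC105155275, on a sequence with no linkage group, had 3.06, 3.60 and 5.58 CPM in SiCD_B pools, against 2.01, 2.26 and 2.01 CPM in SiCD_A pools. It rose by 0.96 on the log2 scale (SE 0.22, adjusted p = 0.0122, edgeR).

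An alcohol-forming reductase that lies beside FAR3-like in a run of FAR genes, LOC105170000, was lower. It had 13.4, 13.6 and 12.2 CPM in SiCD_B pools, against 18.7, 16.4 and 17.5 CPM in SiCD_A pools (log2 fold change -0.42, SE 0.07, adjusted p = 0.00345, edgeR). The groups did not overlap for either gene. Both calls held in all 14 alternatives.

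FAR2-like LOC105159016, named for an Arabidopsis reductase of the pollen wall, had 5, 2 and 8 counts in SiCD_B pools, against 12, 33 and 11 counts in SiCD_A pools. Its log2 fold change of -2.09 (SE 0.63, adjusted p = 0.0350, edgeR) rests on few reads. It was lost without SiCD_B pool 1 (0.0758), SiCD_B pool 2 (0.117) or SiCD_A pool 2 (0.149), and with pool number as a block (0.0512).

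WSD1-type enzymes join alcohols and acids into wax esters. The 4 tested had log2 fold changes from 0.04 to 0.34, and 1 was called. The remaining member, LOC105178565, had too few counts to be tested (10, 3 and 1 in SiCD_B pools, against 8, 8 and 5 in SiCD_A pools). WSD1-like LOC105178564 had 17.5, 18.7 and 18.7 CPM in SiCD_B pools, against 15.9, 16.1 and 16.3 CPM in SiCD_A pools (log2 fold change 0.19, SE 0.06, adjusted p = 0.0398, edgeR). Leaving out a single pool ended this call for 5 of the 6 pools, SiCD_B pool 1 being the exception (adjusted p = 0.0615 to 0.123), and so did upper-quartile factors (0.0541) and DESeq2 (0.0611).

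**Figure D2:**
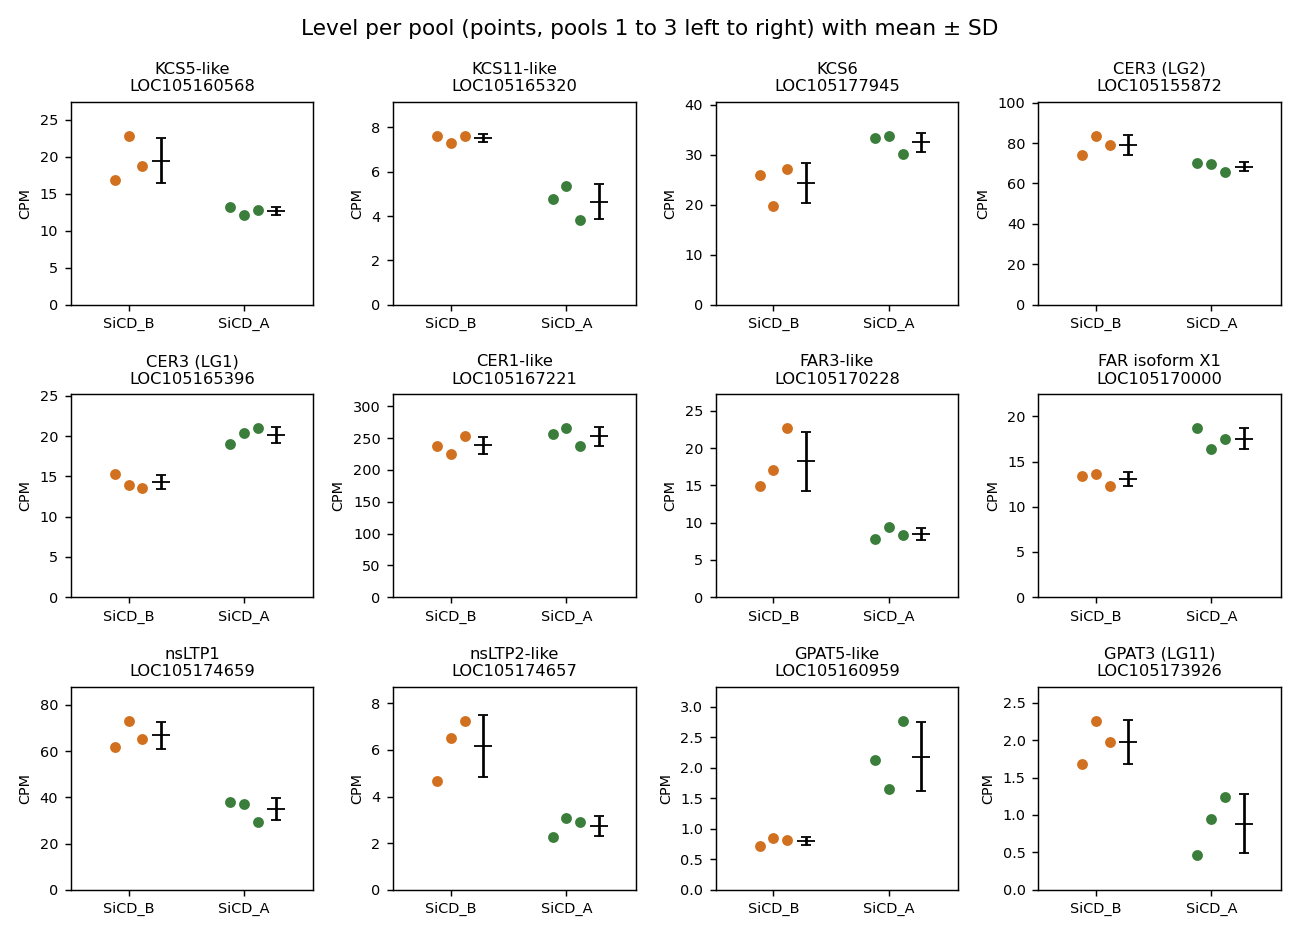
Level in CPM of 12 members in each pool, SiCD_B left and SiCD_A right, with points for pools 1 to 3 and a bar for the mean ± SD (n = 3 pools). The groups do not overlap in 11 panels. In CER1-like, with 226 to 253 CPM in SiCD_B and 237 to 266 CPM in SiCD_A, they do.

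Non-specific lipid-transfer proteins are small secreted proteins that bind lipids in the cell wall, and some are abundant in epidermal surface wax. Of 29 members, 26 were tested, 4 were higher and 1 lower. nsLTP1 LOC105174659 (linkage group 11) had 61.8, 73.2 and 65.4 CPM in SiCD_B pools, against 38.1, 37.0 and 29.3 CPM in SiCD_A pools. The groups lay far apart relative to their spread, and the log2 change was 0.94 (SE 0.11, adjusted p = 0.00113, edgeR). nsLTP2-like LOC105174657 had 4.67, 6.54 and 7.26 CPM in SiCD_B pools, against 2.25, 3.07 and 2.89 CPM in SiCD_A pools (log2 fold change 1.17, SE 0.19, adjusted p = 0.00237).

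The other nsLTP genes called higher were both named like Arabidopsis At2g13820. LOC105169205 (linkage group 8) had 14.2, 16.7 and 14.2 CPM in SiCD_B pools, against 11.2, 10.2 and 7.74 CPM in SiCD_A pools (log2 fold change 0.63, SE 0.13, adjusted p = 0.00990, edgeR). LOC105172597 rose by 0.38 on the log2 scale (SE 0.08, adjusted p = 0.0101). Further members with the same product name were not called, and they differed in sign. On that scale LOC105165361 stood at 0.27 (SE 0.14) and LOC105171325 at -0.31 (SE 0.23). The nsLTP gene called lower, nsLTP2-like LOC105171989, had 18, 27 and 34 counts in SiCD_B pools, against 39, 66 and 37 counts in SiCD_A pools. Its change on the log2 scale was -1.08 (SE 0.34, adjusted p = 0.0399, edgeR), and leaving out a pool ended the call for 5 of the 6, SiCD_B pool 3 being the exception (adjusted p = 0.0511 to 0.144).

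Many members lie side by side on the chromosomes. In RefSeq gene order, allowing at most 1 other gene between neighbours, 11 runs of members were found. The run that holds nsLTP1 has 5 genes on linkage group 11, in coding segments that start between 15238148 and 15251355. In this run 2 were called higher and 0 lower. The gene with the most reads in it, nsLTP2 LOC105174660, had 322, 345 and 348 CPM in SiCD_B pools, against 320, 312 and 243 CPM in SiCD_A pools (log2 fold change 0.22, SE 0.10, adjusted p = 0.144, edgeR). At the far end of the run, LOC105174661 had -0.11 (SE 0.19, adjusted p = 0.682).

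A second nsLTP run, also of 5 genes, lies on linkage group 10, where 1 was lower and 0 higher. Its members had log2 fold changes from -1.08 for LOC105171989 to -0.01 for LOC105171994. The gene LOC105171993 in that run had 71.0, 47.3 and 66.8 CPM in SiCD_B pools, against 118, 91.2 and 55.0 CPM in SiCD_A pools, a spread that held no call (adjusted p = 0.284, edgeR). The FAR run on linkage group 9 has 4 genes, with 1 higher and 1 lower. How the counting treated reads that match more than 1 neighbour is not given, and the neighbours' sequences were not compared. Single values within a run are therefore uncertain.

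**Figure D3:**
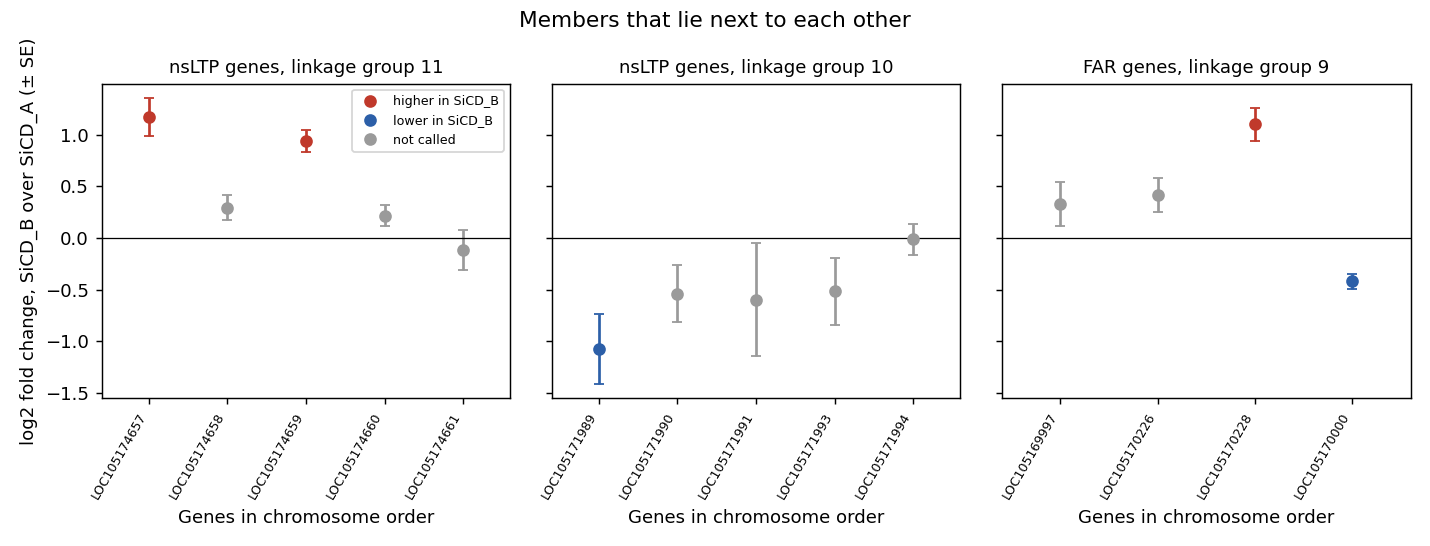
Log2 fold change with standard error, SiCD_B over SiCD_A, of members in 3 runs of neighbouring genes, in chromosome order. Values vary within a run, with 1.17 beside 0.29 in the nsLTP run on linkage group 11 and 1.10 beside -0.42 in the FAR run on linkage group 9.

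For cutin, family 86A cytochromes P450 add the terminal hydroxyl group to fatty acids, and GPAT enzymes attach these to glycerol. Neither P450 was called. CYP86A22 (LOC105157979) had 29.4, 28.3 and 35.8 CPM in SiCD_B pools, against 31.4, 33.3 and 27.8 CPM in SiCD_A pools, and CYP86A8-like (LOC105172724) had 23.1 to 27.0 CPM in SiCD_B and 20.0 to 24.7 CPM in SiCD_A. Their log2 fold changes were 0.01 (SE 0.10) and 0.11 (SE 0.09). GPAT4-like (LOC105169845), named for an Arabidopsis cutin enzyme, had 31.5 to 33.4 CPM in SiCD_B and 32.4 to 33.7 CPM in SiCD_A (log2 fold change -0.03, SE 0.05, adjusted p = 0.643, edgeR).

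The GPAT genes that changed carry other numbers. GPAT5-like (LOC105160959, linkage group 4), named for an Arabidopsis enzyme of suberin, the related polyester of roots and seed coats, had 0.723, 0.850 and 0.812 CPM in SiCD_B pools, against 2.13, 1.64 and 2.77 CPM in SiCD_A pools. It fell by 1.45 on the log2 scale (SE 0.23, adjusted p = 0.00206, edgeR), and the call held in all 14 alternatives. GPAT3 LOC105173926 (linkage group 11) had 1.68, 2.26 and 1.98 CPM in SiCD_B pools, against 0.465, 0.945 and 1.24 CPM in SiCD_A pools (log2 fold change 1.17, SE 0.31, adjusted p = 0.0224). GPAT3-like LOC105172999 rose by 0.27 (SE 0.07, adjusted p = 0.0143), with 23.0 to 26.3 CPM in SiCD_B and 19.7 to 21.5 CPM in SiCD_A.

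Both GPAT3 calls were lost when single pools were left out. That of LOC105173926 was lost without SiCD_B pool 2 (adjusted p = 0.0831, edgeR), SiCD_B pool 3 (0.0611) or SiCD_A pool 2 (0.0600), and that of LOC105172999 without SiCD_B pool 2 (0.0596), SiCD_A pool 1 (0.0525) or SiCD_A pool 2 (0.0547). Of the 6 lysophosphatidate acyltransferases 1 was lower, LOC105159207, with 60, 54 and 44 counts in SiCD_B pools, against 90, 107 and 50 counts in SiCD_A pools (adjusted p = 0.0321). Its call was lost without SiCD_B pool 2 or 3 or SiCD_A pool 1 or 2 (adjusted p = 0.0877 to 0.115). The plastid GPAT (LOC105155516) had 163 to 174 CPM in SiCD_B and 177 to 182 CPM in SiCD_A, and did not pass (log2 fold change -0.11, SE 0.04, adjusted p = 0.0772).

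KAN1 is on linkage group 8 with a coding segment from 5061716 to 5062586, and the 5 members on that linkage group lie 12.6 to 16.3 Mb away. The distance is unknown for 2 members on sequences with no linkage group, LOC105155275 and LOC105178827. Of these 5, the nsLTP gene LOC105169205 (18013589 to 18013934) was called.

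Further genes of acyl chain and cuticle metabolism, from lists of product names, were examined next. Of 25 partners of acyl chain synthesis, 7 were higher and 8 lower (60% called, against 30.6% of all genes tested). The list includes genes named peroxisomal or chloroplastic, so its share is not that of cuticle genes alone. Long chain acyl-CoA synthetase 2 (LOC105169597, linkage group 8, distance from KAN1 not examined), which in Arabidopsis activates fatty acids for cutin, had 98.7, 108 and 112 CPM in SiCD_B pools, against 85.0, 85.4 and 82.2 CPM in SiCD_A pools (log2 fold change 0.34, SE 0.05, adjusted p = 0.00194, edgeR). The called partners LOC105167408 and LOC105169658 are also on linkage group 8, at distances from KAN1 not examined. Of the genes named peroxisomal synthetase 6, LOC105171364 rose by 0.39 (SE 0.04) and LOC105172347 fell by 0.24 (SE 0.05, adjusted p = 0.0112, edgeR). The plastid thioesterase ATL2-like (LOC105160842) fell by 0.72 (SE 0.08). Without SiCD_B pool 2, 4 were higher and 2 lower, and without SiCD_B pool 3, 4 were higher. The lower ones numbered 4 in the absence of SiCD_B pool 1, 3 in that of SiCD_A pool 2 and 5 in that of SiCD_A pool 3, and scaling by library size gave 3.

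Of 27 tested genes for cutin assembly and export, 8 were higher and 1 lower (33.3% called, near the 30.6% of all genes tested). Without SiCD_B pool 2, 5 were higher and 0 lower. The lower gene, HOTHEAD LOC105163474, was not called without SiCD_A pool 1 or 2 either, where the lower number was 0, and without SiCD_B pool 3 or SiCD_A pool 3 it was 2. Another HOTHEAD gene, LOC105157752, was higher (log2 fold change 0.39, SE 0.10, adjusted p = 0.0277, edgeR), and the remaining HOTHEAD genes were not called. ABCG12 (LOC105163639), named for the Arabidopsis wax exporter CER5, had 14.7, 15.8 and 16.5 CPM in SiCD_B pools, against 9.71, 9.66 and 9.57 CPM in SiCD_A pools (log2 fold change 0.70, SE 0.07, adjusted p = 0.000287, edgeR). CYP77A3-like (LOC105167978, linkage group 8), of a family that hydroxylates cutin monomers in mid-chain, had 52.6, 60.8 and 54.0 CPM in SiCD_B pools, against 29.1, 30.9 and 24.4 CPM in SiCD_A pools (log2 fold change 0.99, SE 0.09, adjusted p = 0.000356). LOC105168425 and LOC105169245, also called higher in this list, lie on linkage group 8 as well. The distance of these genes from KAN1 was not examined. The other CYP77A3-like genes, LOC105167977 (0.43, SE 0.17, adjusted p = 0.0800) and LOC105167979 (-0.11, SE 0.12, adjusted p = 0.491), were not called. DIR1 (LOC105172977), a lipid-transfer protein known for defence signalling, rose by 1.05 (SE 0.15). For ABCG12 and CYP77A3-like LOC105167978 the groups were separated by more than the range within either group.

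Regulators of the cuticle were few by name. The 3 tested, all WIN1 or WIN1-like factors, which switch on wax and cutin genes in Arabidopsis, were not called, with log2 fold changes from -0.29 to 0.26. A MYB98-like gene that the list matched by its letters had too few counts to be tested.

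Lists of cell type markers were read in the same pools. The share called was 69.2% for epidermis, 77.3% for dividing cells and 50% for the stomatal lineage. It was 87.5% for phloem and 20% for mesophyll, against 30.6% of all genes tested. Some called markers lie on linkage group 8, at distances from KAN1 not examined. These are LOC105168541 and LOC105167974 of the epidermis, LOC105167492 and LOC105169492 of dividing cells and LOC105168700 of the phloem. Epidermis markers were higher for 9 and lower for 0 of 13, with a summed level of 1068 to 1211 CPM in SiCD_B and 770 to 879 CPM in SiCD_A. Markers of dividing cells were higher for 16 and lower for 1 of 22, with 710 to 799 CPM in SiCD_B and 531 to 560 CPM in SiCD_A. The lower gene, a calcyclin-binding protein, was matched by its letters and is no cyclin, and its call was lost when any 1 of the 6 pools was left out. Stomatal lineage markers were higher for 6 and lower for 1 of 14 tested (2 lower without SiCD_A pool 3 or with pool number as a block), with 243 to 255 CPM in SiCD_B and 214 to 240 CPM in SiCD_A. The higher genes included EPIDERMAL PATTERNING FACTOR-like 1, 2 and 4, matched by family name only, besides SPEECHLESS, EPIDERMAL PATTERNING FACTOR 2 and TOO MANY MOUTHS. Other tested genes of these names were not called. SPEECHLESS-like LOC105160384 had a log2 fold change of -0.13 (SE 0.11) and EPIDERMAL PATTERNING FACTOR-like 2 LOC105177855 had 0.18 (SE 0.16). TOO MANY MOUTHS LOC105164464 had 0.30 (SE 0.10, adjusted p = 0.0547, edgeR). The lower gene was FAMA (log2 fold change -0.75, SE 0.09, adjusted p = 0.00069, edgeR).

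Phloem markers were lower for 7 of 8, with 167 to 196 CPM in SiCD_B and 209 to 237 CPM in SiCD_A, and 4 were lower without SiCD_B pool 2, SiCD_B pool 3 or SiCD_A pool 1. Mesophyll markers, the defining genes of green leaf tissue, were abundant in every pool, with 21940 to 25830 CPM in SiCD_B and 21760 to 32800 CPM in SiCD_A. Of their 20 genes 1 was higher and 3 lower, and the lower ones numbered 16 without SiCD_A pool 3, 1 without SiCD_B pool 1 and 0 without any other single pool. DESeq2 called 6 of them lower, and the fit with pool number as a block 11. In each of the 5 marker lists 0 genes were at 0 in all pools. The summed level of all 86 cuticle and wax genes was 2400 to 2543 CPM in SiCD_B and 2209 to 2511 CPM in SiCD_A, and these overlapped. In bulk leaf RNA, fewer cells of a type and less RNA per cell cannot be told apart, and the part of cell makeup in the changes of single members was not tested.

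**Figure D4:**
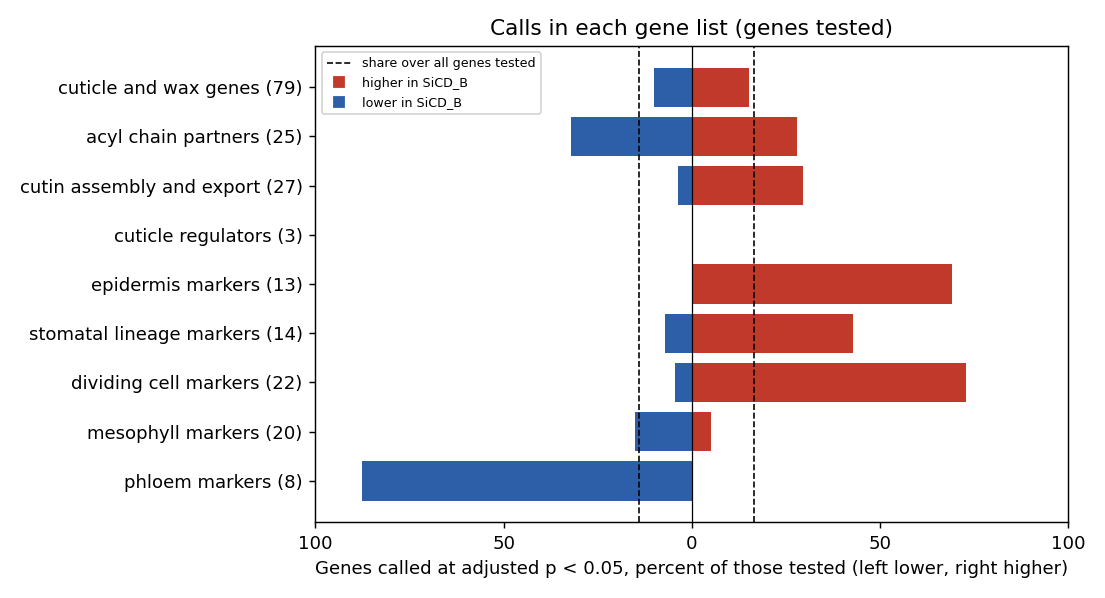
Percent of tested genes called higher (right) and lower (left) in SiCD_B for the cuticle and wax genes, 3 lists of further acyl chain and cuticle genes and 5 lists of cell type markers. Dashed lines mark the shares over all genes tested, 16.5% higher and 14.1% lower. The 79 tested cuticle and wax genes lie inside both lines, with 12 higher and 8 lower.

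SiCD_A pool 3, the shallowest, held the lowest CPM of all 6 pools for 26 of the 79 tested members (32.9%), against 25.3% of all genes tested. Without it, 13 members were higher and 9 lower, close to the 12 and 8 with it. In the authors' deposited table, 13 members were higher and 9 lower at an adjusted p under 0.05. Of their 22, 19 were also called here. The 3 called only in that table were KCS6-like LOC105160999, nsLTP1-like LOC105174658 and the plastid GPAT LOC105155516, and the 1 called only here was WSD1-like LOC105178564.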

How the data were processed

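RNA of 6 leaf pools, 3 for each allele, was sequenced as pairs of reads after library preparation with a TruSeq version 2 kit, per the labels. Tools listed in the submitters' processing notes are STAR, HTSeq, SAMtools, DESeq2, Trim Galore and FastQC (version 0.11.4), with no role or order. The build is not given in the sources used here. Per gene, the authors deposited whole-number counts without normalization. Their annotated deposited table holds the log2 change of each gene, its adjusted p-value, a product name and a coding segment. The kit does not mark strand, so reads of overlapping antisense genes cannot be told apart. RefSeq's gene table (assembly S_indicum_v1.0) lists all 86 members, and 86 of the 86 deposited segments lay inside the RefSeq gene spans. That table gave linkage groups and gene order. No sequence or coding length was used here.

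Differences were tested on the counts by edgeR 4.0.16 under R 4.3.3 (quasi-likelihood, robust, TMM, filterByExpr), SiCD_B minus SiCD_A, over 6 pools and without covariates, with Benjamini-Hochberg adjustment over 21009 genes. The SE is the log2 fold change divided by the square root of F. CPM use TMM-scaled library sizes per 1000000 counts, so that 3 counts, the limit a count of 0 allows, equal 0.0365 to 0.0535 CPM before scaling, for counting error only. The fit was first tested on simulated data. There far fewer genes were changed than were called here, and the spread was the fit's own, so that test does not measure errors among these calls.

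The members and lists were chosen with earlier results of these data known. Named members are, per class, up to 3 called with the smallest p and a mean of at least 1 CPM, the member with most reads, and every called member changed at least 2-fold, and up to 3 called genes per pathway list. Others named here (KCS6 and CER3 copies, KCS10, CER1, CER2-like, CER26-like, LOC105172597, LOC105165361, LOC105171325, LOC105171993, LOC105171994, LOC105174661, LOC105174658, LOC105159207, GPAT4-like, CYP86A8-like, HOTHEAD copies, LOC105172347, CYP77A3-like copies, the named stomatal lineage markers) were chosen after their values were seen. Alternatives were other scalings (DESeq2 1.42.0 size factors, upper quartile, or the library total), other filters (none, or 1 CPM in 3 pools), other tests (DESeq2's Wald test, or voom in limma 3.58.1), pool number as a block, and leaving out each of the 6 pools. Figures used matplotlib 3.10.9.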

Additional observations from a re-analysis of the deposited data

How the results depend on the processing

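Across 14 refits, 11 of the 20 called members kept their call in every refit that gave a value, and the other 9 lost it without at least 1 pool. No named gene with a call reversed. Leaving out single pools, 3919 (without SiCD_B pool 2) to 5998 genes were called in all, against 6433, and 8 to 13 members were higher and 3 to 9 lower, against 12 and 8. A CPM of at least 1 in 3 pools left 4 lower members, since fewer genes were tested. With a limit of 1.5-fold, 8 members were higher and 5 lower, and with 2-fold, 3 and 4. Without the lysophosphatidate and plastid acyltransferases, 12 were higher and 7 lower. With library size alone 14 were higher and 8 lower. The median log2 fold change of members ranged from -0.0724 to 0.032 and so changed sign with the setting.

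Pools of the same number deviated together only weakly (Pearson correlation across genes 0.00909 to 0.0701). Pools of unlike number had -0.0784 to 0.00446. Values this small do not settle whether same-number pools share more than a number. With the replicate block, 7181 genes were called in all, and 12 members were higher and 9 lower. For the 3 lower members of at least 2-fold with a mean under 1 CPM, the SE of the log2 fold change was 0.34 to 0.63.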
